A study of Mus musculus with 28 samples.

Results

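A set of 9 genes was followed through tamoxifen treatment of mouse muscle: *Flrt1*, the unnamed transcript *AC109619.1* that lies beside it, the paralogs *Flrt2* and *Flrt3*, the host gene *Macrod1*, and the receptor genes *Adgrl1*, *Adgrl2*, *Adgrl3* and *Unc5b*. They are 9 of the 55359 gene identifiers that both count tables hold. *Flrt1* and *AC109619.1* were selected on their counts in treated against placebo mice, where they were higher, so their levels under tamoxifen are given as a description, without a test. The other 7 were taken for their relation to *Flrt1* as paralogs, host gene and receptors. Members differ in what could be tested: all 9 passed the filter on low counts in the *Dnm2* cohort, and *Flrt3* and *Adgrl3* did not in the *Bin1* cohort.

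FLRT proteins are cell-surface proteins with leucine-rich repeats and a fibronectin domain, and are best known for guiding axons and migrating cells and for building synapses. Across the gap between cells they bind latrophilins, adhesion G protein-coupled receptors encoded by *Adgrl1* to *Adgrl3*, and FLRT2 and FLRT3 also bind the netrin receptors of the UNC5 family, to which *Unc5b* belongs. On their own cell, FLRT proteins are known to associate with FGF receptors and with ROBO1. *Macrod1*, in whose intron *Flrt1* lies, encodes a mitochondrial enzyme that removes ADP-ribose from proteins, and is abundant in skeletal muscle.

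RNA-seq counts came from the tibialis anterior (TA) muscle of 28 mice of the C57BL/6N strain, aged 8 weeks, in 7 groups of 4. The *Dnm2* cohort held WT mice and *Dnm2* S619L/+ mice, which carry 1 copy of a point mutation of the dynamin 2 gene, each on placebo and on tamoxifen. The *Bin1* cohort held WT mice on placebo and *Bin1* mck-/- mice, in which *Bin1* is deleted in muscle only, on placebo and on tamoxifen. Tamoxifen, a drug that binds estrogen receptors, was given in the diet. The *Bin1* cohort has no WT treated mice, and its libraries were made with 8 min of RNA fragmentation against 2 min in the *Dnm2* cohort, so levels are compared within a cohort only. Mice are numbered as in their labels (5 to 8 for WT of the *Bin1* cohort), and values below are listed in that order. Sex is not stated.

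Depth was 24671835 to 35136327 reads on genes per mouse in the *Bin1* cohort and 15586333 to 109710886 in the *Dnm2* cohort. Values are CPM, read counts divided by library size (the usual CPM scale) and adjusted by edgeR's TMM factors. All 6 fiber markers tested (*Ckm*, *Acta1*, *Myh4*, *Myh1*, *Ttn* and *Des*) were high in every mouse, with a sum of 68624 CPM or more. A set of treated mice also held RNA of bone: the sum of 8 osteoblast and osteocyte markers (*Bglap*, *Bglap2*, *Ibsp*, *Sp7*, *Dmp1*, *Phex*, *Mepe* and *Alpl*) was 11.6 to 57.0 CPM in all 16 placebo mice, but 296 to 925 CPM in the 4 WT treated mice, 183, 411, 533 and 47.5 CPM in *Dnm2* S619L/+ treated mice, and 24.5, 294, 18.3 and 19.8 CPM in *Bin1* mck-/- treated mice. In placebo mice 1 or 2 of the 8 markers reached 1 CPM, against 5 to 7 in the 8 treated mice with a sum of 183 CPM or more. *Bglap* and *Bglap2* are near copies and may share reads. These sums are set beside the members where they move together. In bulk tissue, fewer cells of a type and less RNA per cell cannot be told apart.

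*Flrt1* (ENSMUSG00000047787) has 2 exons on the minus strand of chromosome 19 in the GENCODE M21 annotation, and *AC109619.1* (ENSMUSG00000117901) has 1 exon of 953 bases on the same strand and is typed there as antisense, the strand of *Macrod1* being the opposite one. Both lie wholly inside intron 3 of *Macrod1*, a gene of 11 exons on the plus strand, and overlap 0 of its exons. In GENCODE M21, *AC109619.1* begins 3579 bases past the 3′ end of *Flrt1*. In the RefSeq annotation of the same build, the *Flrt1* model runs on through 100% of *AC109619.1*, and the 3′ ends of the 2 differ by 5 bases. RefSeq has 3 genes that overlap *AC109619.1*, *Flrt1*, *Macrod1* and the RNA gene *5730409K12Rik*. Reads counted for *AC109619.1* can therefore be reads of a longer *Flrt1* transcript or of the other overlapping genes, which cannot be told apart here, and the values of these 2 genes are not independent measurements. Which model the deposited counts used is not given in the sources used here, nor is whether counting used the strand.

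Promoter sequences were read from the RefSeq table (GRCm38.p6), which matched 7 of the 9 members, not *Flrt1* or *AC109619.1*. The windows, from upstream of the transcript start to just inside the transcript, are shown for *Flrt2*, *Flrt3* and *Macrod1*, the members that passed the test in a tamoxifen comparison.
Flrt2, chr12:95691976-95692275 (+ strand): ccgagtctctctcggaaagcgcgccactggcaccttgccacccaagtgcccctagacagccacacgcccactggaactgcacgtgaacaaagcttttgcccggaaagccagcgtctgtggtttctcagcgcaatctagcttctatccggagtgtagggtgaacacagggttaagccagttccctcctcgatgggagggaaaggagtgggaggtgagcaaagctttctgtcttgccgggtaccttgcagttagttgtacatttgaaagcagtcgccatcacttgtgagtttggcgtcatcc
Flrt3, chr2:140671427-140671726 (− strand): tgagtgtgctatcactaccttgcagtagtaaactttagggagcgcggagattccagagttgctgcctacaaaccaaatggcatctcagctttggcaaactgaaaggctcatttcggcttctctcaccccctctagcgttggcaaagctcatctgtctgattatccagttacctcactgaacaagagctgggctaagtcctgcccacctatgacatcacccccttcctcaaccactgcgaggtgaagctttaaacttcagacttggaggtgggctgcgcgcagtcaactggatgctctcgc
Macrod1, chr19:7056518-7056817 (+ strand): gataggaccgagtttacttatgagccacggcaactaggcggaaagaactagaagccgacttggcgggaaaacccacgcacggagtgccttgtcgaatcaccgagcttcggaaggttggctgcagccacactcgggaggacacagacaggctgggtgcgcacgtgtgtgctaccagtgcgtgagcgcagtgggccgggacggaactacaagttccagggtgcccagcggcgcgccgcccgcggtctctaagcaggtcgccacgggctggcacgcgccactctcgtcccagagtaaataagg
None of these 3 windows held, on either strand, the full estrogen response element searched (GGTCA followed after 3 bases by TGACC), its core hexamer AGGTCA, the E-box CAGCTG of muscle regulators, or the AP-1 site TGANTCA. A match would have been in capitals. Over all 32851 promoters of the table, 0.0700% held the full element, 16.3% the hexamer, 16.3% the E-box and 7.81% the AP-1 site. In the 10 windows of the 7 matched members, the only match was 1 E-box in 1 of the 3 windows of *Adgrl3*.

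*Flrt1* was 21.3 CPM or more in every treated mouse and 2.14 CPM or less in every placebo mouse. WT mice of the *Dnm2* cohort had 0.679, 1.13, 1.90 and 0.759 CPM on placebo and 51.6, 31.5, 62.0 and 31.3 CPM on tamoxifen. *Dnm2* S619L/+ mice had 2.14, 0.672, 0.814 and 0.474 CPM on placebo and 35.5, 21.3, 30.2 and 44.3 CPM on tamoxifen. *Bin1* mck-/- mice had 0.976, 0.386, 0.696 and 0.665 CPM on placebo and 36.5, 30.1, 104 and 39.2 CPM on tamoxifen. Placebo and treated mice did not overlap in any of the 3 pairs of groups, as fits the way the gene was chosen, and the highest value was that of *Bin1* mck-/- treated mouse 3.

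On the log2 scale, the fitted difference of *Flrt1* between treated and placebo mice was 5.48 (SE 0.45) in WT, 4.89 (SE 0.44) in *Dnm2* S619L/+ and 6.25 (SE 0.54) in *Bin1* mck-/- mice. The lower value in *Dnm2* S619L/+ mice rests in part on placebo mouse 1, without which it was 5.66. Reads behind the placebo values numbered 12 to 95 per mouse, and 535 to 2678 behind the treated values.

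**Figure D1:**
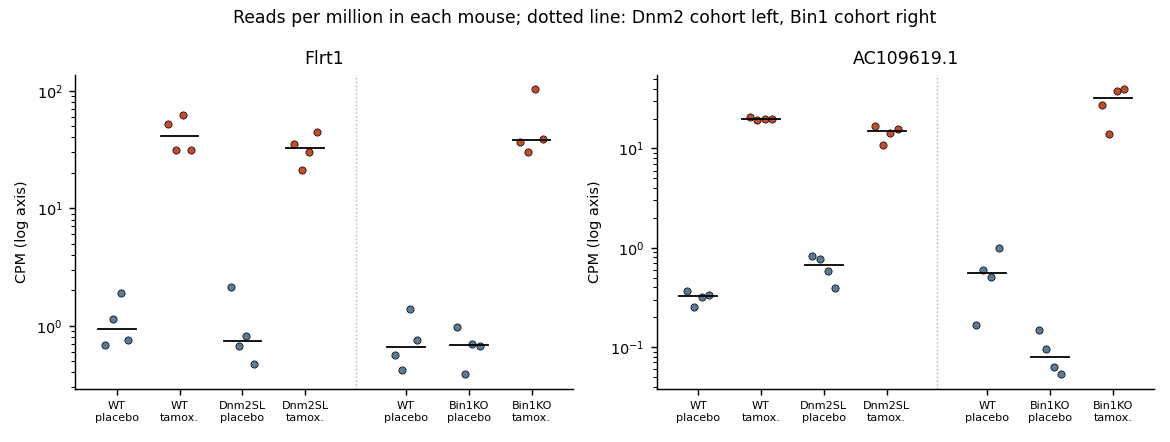
CPM of *Flrt1* (left) and *AC109619.1* (right) in each of the 28 mice on log axes, with placebo mice in blue, treated mice in red and the group median as a line. Treated mice lie between 21.3 and 104 CPM for *Flrt1* and between 10.9 and 39.9 CPM for *AC109619.1*, above all placebo mice of both cohorts.

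The genotype itself left *Flrt1* without a detected difference. WT mice of the *Bin1* cohort had 0.559, 0.417, 1.38 and 0.753 CPM, a range that overlaps that of the *Bin1* mck-/- placebo mice. The log2 fold change between disease and WT mice on placebo was 0.17 in the *Dnm2* cohort (95% interval −0.82 to 1.17, edgeR adjusted p = 0.823) and −0.18 in the *Bin1* cohort (−1.45 to 1.08, edgeR adjusted p = 0.901). These intervals are wide, and the sign of the first turned without *Dnm2* S619L/+ placebo mouse 1 (−0.60). Markers of denervated fibers were a list of 7 genes with *Chrng* and *Myog* among them. In these *Dnm2* S619L/+ placebo mice 6 of 7 passed the test as higher, where 12.1% of all genes did. The relation of these markers to *Flrt1* was not tested. Among treated mice of the *Dnm2* cohort, the 2 genotypes overlapped in *Flrt1*, and its log2 fold change was −0.42 (−1.17 to 0.33, edgeR adjusted p = 0.555).

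The *Flrt1* values of treated mice are set here beside their bone marker sums. That *Flrt1* was high in all of them fits the way it was chosen. WT treated mice had sums of 698, 925, 296 and 368 CPM and *Flrt1* values of 51.6, 31.5, 62.0 and 31.3 CPM. In *Bin1* mck-/- treated mice 1, 3 and 4, whose marker sum of 18.3 to 24.5 CPM was below that of the 4 placebo mice of this genotype (25.1 to 38.6 CPM), *Flrt1* was 36.5, 104 and 39.2 CPM. In mouse 2 of that group, at 294 CPM of bone markers, it was 30.1 CPM, the lowest of the 4. *Dnm2* S619L/+ treated mouse 4, with the lowest marker sum of its group, had the highest *Flrt1* value of that group, 44.3 CPM. Mice 1 to 3 of that group, at 183, 411 and 533 CPM of bone markers, had 35.5, 21.3 and 30.2 CPM. The part of bone in the *Flrt1* difference was not tested.

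*AC109619.1* was also higher in every treated mouse than in the placebo mice. WT mice of the *Dnm2* cohort had 0.365, 0.255, 0.316 and 0.335 CPM on placebo and 20.9, 19.3, 19.9 and 19.8 CPM on tamoxifen. *Dnm2* S619L/+ mice had 0.833, 0.767, 0.588 and 0.395 CPM on placebo and 16.7, 10.9, 14.2 and 15.9 CPM on tamoxifen. *Bin1* mck-/- mice had 0.148, 0.0965, 0.0633 and 0.0532 CPM on placebo, which are 5, 3, 2 and 2 reads, and 27.5, 14.1, 37.5 and 39.9 CPM on tamoxifen. The groups did not overlap in any of the 3 genotypes.

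The fitted log2 difference of *AC109619.1* between treated and placebo mice was 5.92 (SE 0.21) in WT, 4.45 (SE 0.20) in *Dnm2* S619L/+ and 8.31 (SE 0.56) in *Bin1* mck-/- mice. For the last, the pooled reads were 3157 of 113867853 in treated and 12 of 125110799 in placebo mice, a ratio of CPM of 289 (exact 95% interval 165 to 560, for counting error only). Its large size comes with a low placebo level. The *Dnm2* cohort difference was smaller in disease than in WT mice by 1.48 on the log2 scale (SE 0.28), which is given as a description.

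On placebo, levels of *AC109619.1* were low, and those of disease and WT mice stood apart in opposite directions in the 2 cohorts. In the *Dnm2* cohort its log2 fold change was 1.01, higher in disease mice (95% interval 0.52 to 1.5, edgeR adjusted p = 0.00666), and all 4 disease mice were above all 4 WT mice. The filter asks for 0.347 CPM in 4 mice of this cohort, exceeded by 4 of 4 disease and 0 of 4 WT placebo mice. These WT mice had 4 to 36 reads each. The gene thus entered through groups where it was high, and the call is a weak one. Without *Dnm2* S619L/+ placebo mouse 1 the edgeR adjusted p was 0.0531 (log2 fold change 0.82). In the *Bin1* cohort, WT mice had 0.168, 0.591, 0.512 and 0.994 CPM, all above the 4 *Bin1* mck-/- placebo mice. These are 12 pooled reads in disease against 72 in WT mice. The gene entered the test in this cohort only through its treated mice. The filter asks for 0.326 CPM in 4 mice of the cohort, exceeded by 0 of 4 disease and 3 of 4 WT placebo mice. The difference on placebo, a log2 fold change of −2.6, is therefore given as a description. On tamoxifen, the *Dnm2* S619L/+ mice were all below the WT treated mice, with a log2 fold change of −0.47 that did not pass (−0.80 to −0.14, edgeR adjusted p = 0.129; DESeq2 adjusted p = 0.0408).

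The number of *Flrt1* reads per *AC109619.1* read was 1.58 to 3.12 in WT treated, 1.95 to 2.79 in *Dnm2* S619L/+ treated and 0.983 to 2.77 in *Bin1* mck-/- treated mice. On placebo it was 1.86 to 6 in WT and 0.875 to 2.57 in *Dnm2* S619L/+ mice of the *Dnm2* cohort, and 0.706 to 3.33 in WT and 4 to 12.5 in *Bin1* mck-/- mice of the *Bin1* cohort. Treated mice of the 3 genotypes thus overlapped in this ratio, and the *Bin1* mck-/- placebo mice, with 2 to 5 reads of *AC109619.1* each, stood above all of them.

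*Flrt2* (ENSMUSG00000047414), the paralog with the highest placebo level, was higher under tamoxifen in the *Dnm2* cohort. WT mice had 7.84, 6.05, 5.85 and 8.19 CPM on placebo and 55.2, 63.7, 36.8 and 32.6 CPM on tamoxifen, with no overlap. Its log2 fold change was 2.74 (SE 0.44, edgeR adjusted p = 0.000658). Of the 7 members open to a test in this comparison, 2 passed as higher, *Flrt2* and *Flrt3*, and 0 as lower, where 27.7% of all genes tested passed (15.8% higher, 11.9% lower). The call of *Flrt3* was narrow and rested on low counts. The median log2 fold change of the 7 was 0.22, and that of all genes was −0.04.

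In *Dnm2* S619L/+ mice, *Flrt2* had 16.2, 16.1, 7.60 and 13.0 CPM on placebo and 36.7, 56.0, 52.0 and 8.73 CPM on tamoxifen. Mouse 4 lay inside the placebo range, the other treated mice above it. The log2 fold change of 1.53 passed (SE 0.42, edgeR adjusted p = 0.0375), the only one of the 7 members to do so, where 8.27% of all genes passed (5.22% higher, 3.05% lower). The median of the 7 was 0.26, and that of all genes −0.03. The call is a weak one, and did not hold in a fit of only these groups (adjusted p = 0.150) or without any of placebo mice 1 to 4, treated mice 1 to 3 or WT placebo mouse 2 (edgeR adjusted p from 0.0504 to 0.137). Without treated mouse 4 the log2 fold change was 1.87 (edgeR adjusted p = 0.000275). The difference between the 2 tamoxifen effects was −1.21 on the log2 scale and did not pass (95% interval −2.45 to 0.04, edgeR adjusted p = 0.387).

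Among *Bin1* mck-/- mice, *Flrt2* had 6.98, 6.14, 3.64 and 11.4 CPM on placebo and 4.31, 20.5, 2.91 and 2.96 CPM on tamoxifen. Mouse 2 alone stood above the placebo range. With a log2 fold change of 0.13, it did not pass (−1.23 to 1.5, edgeR adjusted p = 0.930), and without that mouse it was −1.06 (edgeR adjusted p = 0.0579). In disease against WT mice on placebo, *Flrt2* gave 0.91 (edgeR adjusted p = 0.134; 0.0246 in a fit of only these groups and 0.0197 without *Dnm2* S619L/+ treated mouse 4) in the *Dnm2* cohort and 1.04 (edgeR adjusted p = 0.396) in the *Bin1* cohort, where WT mice had 3.19, 2.47, 3.87 and 4.22 CPM.

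*Flrt2* was high in the mice with bone RNA. The 8 treated mice with a bone marker sum of 183 CPM or more had 20.5 to 63.7 CPM of *Flrt2*, and the 4 with 47.5 CPM or less had 2.91 to 8.73 CPM. The osteoblast and osteocyte list passed the test as higher in 6 of 7 genes tested under tamoxifen in WT and in 6 of 7 in *Dnm2* S619L/+ mice, and in 0 of 3 in *Bin1* mck-/- mice. Treated mice count toward the filter on low counts, and in placebo mice 1 or 2 of the 8 markers reached 1 CPM. The counts of this list are therefore a description. For this list and those below, the shares of all genes that passed as higher were 15.8%, 5.22% and 1.52%, in the same order. Tendon markers were also higher in WT treated mice (4 of 4 passed, sum 396 to 893 CPM against 1.95 to 140), and 0 of 4 passed in the other tamoxifen comparisons. The tendon sum of *Dnm2* S619L/+ mice was 255, 480, 509 and 30.9 CPM on tamoxifen against 56.4 to 162 CPM on placebo, with the low value again in mouse 4. Further lists that moved in WT treated mice were macrophage markers (3 of 3 passed as higher, sum 51.2 to 143 CPM against 15.6 to 24.9), fibro-adipogenic markers (2 of 4, 648 to 882 against 355 to 419) and cartilage markers (2 of 3 tested, 24.3 to 53.8 against 2.48 to 6.09). The fiber marker sum was lower in these mice, at 73460 to 87389 CPM against 99467 to 121040 CPM, with 0 of 6 past the test. Of 7 markers of denervated fibers, 2 passed as higher and 2 as lower, where 11.9% of all genes passed as lower. Of the 3 cartilage markers, *Acan* passed in *Dnm2* S619L/+ mice as well. The part of these tissues and cell types in the *Flrt2* difference was not tested.

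**Figure D2:**
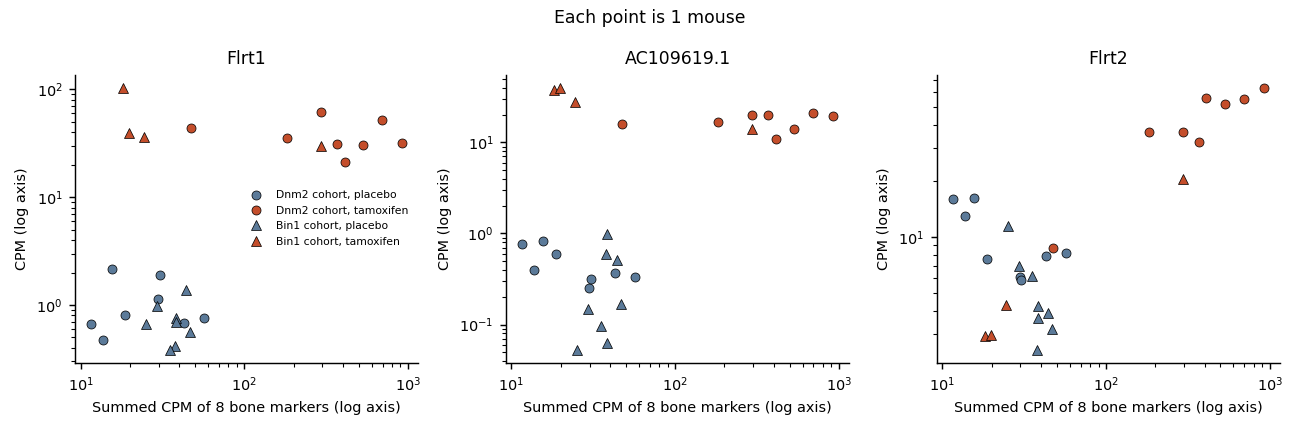
CPM of *Flrt1*, *AC109619.1* and *Flrt2* against the summed CPM of the 8 bone markers, on log axes, with 1 point per mouse (circles for the *Dnm2* cohort, triangles for the *Bin1* cohort, blue for placebo, red for tamoxifen). *Flrt1* and *AC109619.1* are high in all 12 treated mice, as fits the way they were chosen, over marker sums of 18.3 to 925 CPM. *Flrt2* exceeds 20 CPM only in treated mice with 183 CPM or more of these markers.

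*Flrt3* (ENSMUSG00000051379) was the rarest FLRT gene. WT mice of the *Dnm2* cohort had 0.395, 0.198, 0.316 and 0.513 CPM on placebo and 1.75, 1.14, 0.376 and 0.862 CPM on tamoxifen, on 4 to 87 reads per mouse. Of the treated mice, 3 lay above the placebo range and mouse 3 inside it. The log2 fold change of 1.52 passed narrowly (SE 0.54, edgeR adjusted p = 0.0470). The filter on low counts asks for 0.347 CPM in 4 mice of the cohort. WT treated mice were the only group with all 4 above it, against 2 of 4 WT placebo mice and 3 of 4 in each *Dnm2* S619L/+ group. The call did not hold without any of WT placebo mice 1 to 3, WT treated mice 1, 2 or 4, *Dnm2* S619L/+ placebo mouse 2 or treated mice 1 or 3 (edgeR adjusted p from 0.0534 to 0.171). The log2 fold change was 0.09 in *Dnm2* S619L/+ mice (edgeR adjusted p = 0.947), whose treated mice had 0.552, 1.08, 0.441 and 0.154 CPM against a placebo range of 0.181 to 0.788 CPM. Within the *Bin1* cohort *Flrt3* was between 0 and 0.757 CPM. *Bin1* mck-/- treated mouse 4 had 0 reads, which allows up to 0.0982 CPM, and the highest value was in mouse 2, the one with bone RNA.

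Per kb of exon, which permits a comparison between genes, *Flrt1* held a median of 14.5% of the summed level of the 3 FLRT genes in WT placebo mice of the *Dnm2* cohort, 8.49% in *Dnm2* S619L/+, and 18% and 11.3% in WT and *Bin1* mck-/- placebo mice of the *Bin1* cohort. On tamoxifen its share was 38.8 to 68.5% in WT, 32.7 to 86.6% in *Dnm2* S619L/+ and 64.6 to 97.7% in *Bin1* mck-/- mice. *Flrt2* held most of the remainder, and *Flrt3* held at most 8.38% in any mouse. The summed FLRT level was 0.427 to 2.62 CPM per kb in placebo mice and 6.83 to 18.1 CPM per kb in treated mice. These lengths come from GENCODE M21 and exclude the stretch of *AC109619.1*.

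**Figure D3:**
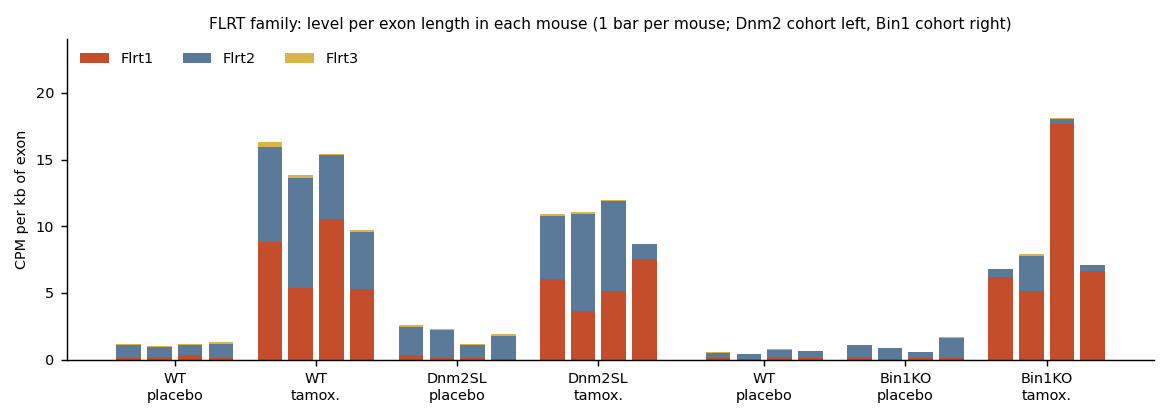
Level of the 3 FLRT genes per kb of exon in each mouse, stacked, with 1 bar per mouse in label order. *Flrt2* makes up most of the low placebo bars (64.7 to 91.5%), and *Flrt1* makes up 32.7 to 97.7% of the bars of treated mice.

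Among the latrophilins, *Adgrl1* (ENSMUSG00000013033) was the most abundant per kb in all 28 mice, with 78.2% or more of their summed level. It was lower in both disease models on placebo. In the *Dnm2* cohort, WT mice had 55.4, 58.7, 55.4 and 60.2 CPM and *Dnm2* S619L/+ mice 41.4, 40.4, 47.1 and 44.5 CPM, with no overlap. Its log2 fold change was −0.40 (95% interval −0.64 to −0.17, edgeR adjusted p = 0.0162), and the call was kept without each mouse in turn.

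In the *Bin1* cohort, which has control mice of its own, WT mice had 59.9, 85.1, 77.3 and 59.5 CPM of *Adgrl1* and *Bin1* mck-/- mice 49.9, 42.8, 44.3 and 41.7 CPM, again with no overlap. The log2 fold change was −0.66 (−1 to −0.32, edgeR adjusted p = 0.0432). Here it did not hold without any of placebo mice 1 to 4, treated mouse 1 or WT mice 6, 7 or 8 (edgeR adjusted p from 0.0511 to 0.147), at log2 fold changes of −0.73 to −0.55. On placebo, 3 of 9 members passed in the *Dnm2* cohort, 1 higher (*AC109619.1*) and 2 lower (*Adgrl1* and *Adgrl2*), where 21.9% of all genes passed (12.1% higher, 9.81% lower). The call of *AC109619.1* came with 0 of 4 WT placebo mice above the filter limit. Within the *Bin1* cohort 1 of 7 tested passed, *Adgrl1*, where 2.61% of all genes passed (1.99% higher, 0.627% lower). These 7 and their median include *AC109619.1*, whose value there is a description. The median log2 fold change of the members was 0.17 and −0.27, against 0.02 and 0.01 over all genes.

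Treated disease mice had *Adgrl1* values of 56.2, 57.2, 58.2 and 41.2 CPM (*Dnm2* S619L/+) and 61.1, 56.1, 89.2 and 54.3 CPM (*Bin1* mck-/-). All but *Dnm2* S619L/+ treated mouse 4 were above the placebo mice of their genotype. The log2 fold changes against placebo were 0.29 (0.06 to 0.52, edgeR adjusted p = 0.108) and 0.54 (0.20 to 0.88, edgeR adjusted p = 0.0730) and did not pass. The first passed without treated mouse 4 (0.40, edgeR adjusted p = 0.00818), and the second passed without treated mouse 2 (0.61, edgeR adjusted p = 0.0366), with no filter on low counts (edgeR adjusted p = 0.0437) and by DESeq2 (adjusted p = 0.0286). These comparisons use the same placebo disease mice as those against WT. In WT mice the change was 0.22 (−0.01 to 0.45, edgeR adjusted p = 0.134), from values of 59.6, 74.7, 71.2 and 63.0 CPM on tamoxifen.

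*Adgrl2* (ENSMUSG00000028184), a latrophilin known from endothelium among other tissues, was lower in *Dnm2* S619L/+ than in WT mice on placebo. WT mice had 25.2, 20.5, 16 and 27.3 CPM and disease mice 13.1, 12.1, 19.7 and 7.27 CPM, overlapping through disease mouse 3. Its log2 fold change was −0.78 (−1.27 to −0.29, edgeR adjusted p = 0.0255). This did not hold in a fit of only these groups (adjusted p = 0.0725) or without any of WT mice 1 or 4 or disease mice 1, 2 or 4 (edgeR adjusted p from 0.0509 to 0.0668). Endothelial markers moved in the same direction: 3 of 5 passed as lower, and their sum was 554, 431, 349 and 706 CPM in WT and 237, 185, 458 and 166 CPM in disease mice, highest in disease mouse 3 and lowest in mouse 4, as for *Adgrl2*. Of all genes, 9.81% passed as lower in this comparison. The part of endothelium in the *Adgrl2* difference was not tested.

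In *Bin1* mck-/- against WT mice on placebo, *Adgrl2* gave −0.27 (−0.72 to 0.18, edgeR adjusted p = 0.508), with 18.1, 15.4, 20.7 and 14.3 CPM in WT and 14.0, 11.7, 17.6 and 13.3 CPM in disease mice. Under tamoxifen it was −0.49 in WT (−0.98 to −0.01, edgeR adjusted p = 0.119), 0.13 in *Dnm2* S619L/+ (−0.36 to 0.62, edgeR adjusted p = 0.769) and −0.49 in *Bin1* mck-/- mice (−0.95 to −0.04, edgeR adjusted p = 0.207), and none passed. The first passed only without *Dnm2* S619L/+ placebo mouse 4 (edgeR adjusted p = 0.0494). *Adgrl3* (ENSMUSG00000037605) was between 0 and 0.697 CPM in all mice, on 46 reads or fewer, and did not pass in any comparison of the *Dnm2* cohort, the only one where it was tested.

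*Unc5b* (ENSMUSG00000020099), a netrin receptor of endothelium and other tissues, did not pass in any comparison. WT mice of the *Dnm2* cohort had 11.8, 6.28, 4.58 and 14.0 CPM on placebo and 14.0, 17.7, 10.3 and 13.5 CPM on tamoxifen. *Dnm2* S619L/+ mice had 5.20, 5.61, 16.9 and 3.83 CPM on placebo and 17.3, 18.2, 23.6 and 5.31 CPM on tamoxifen. Placebo mouse 3 and treated mouse 4 each lay in the range of the other group.

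The log2 fold change of *Unc5b* under tamoxifen was 0.58 in WT (−0.45 to 1.6, edgeR adjusted p = 0.392) and 1.04 in *Dnm2* S619L/+ mice (−0.01 to 2.08, edgeR adjusted p = 0.200). The second passed without placebo mouse 3 (1.72, edgeR adjusted p = 0.0350), the mouse with the highest endothelial marker sum of its group. Among *Bin1* mck-/- mice the values were 9.73, 5.44, 13.8 and 11 CPM on placebo and 7.36, 18.2, 7.10 and 2.74 CPM on tamoxifen, with a log2 fold change of −0.17 (−1.17 to 0.83, edgeR adjusted p = 0.868). As for *Flrt2*, treated mouse 2 was the highest of this group.

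*Macrod1* (ENSMUSG00000036278) was the most abundant member, at 75.3 to 370 CPM, and did not share the *Flrt1* pattern in the *Dnm2* cohort. WT mice had 127, 111, 106 and 150 CPM on placebo and 75.3, 104, 143 and 185 CPM on tamoxifen (log2 fold change 0.04, −0.43 to 0.50, edgeR adjusted p = 0.914). *Dnm2* S619L/+ mice had 155, 167, 160 and 132 CPM on placebo and 173, 164, 160 and 240 CPM on tamoxifen (0.26, −0.20 to 0.73, edgeR adjusted p = 0.485). The groups overlapped in both genotypes.

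In the *Bin1* cohort, *Macrod1* was higher under tamoxifen. *Bin1* mck-/- mice had 215, 224, 207 and 170 CPM on placebo and 370, 270, 261 and 343 CPM on tamoxifen, with no overlap, and WT placebo mice had 186, 225, 246 and 237 CPM. The log2 fold change was 0.61 (0.31 to 0.91, edgeR adjusted p = 0.0303), the only call among the 5 members tested there, where 3.13% of all genes passed (1.52% higher, 1.61% lower). It did not hold in a fit of only these groups (adjusted p = 0.0870) or without any of placebo mice 1, 2 or 4 or treated mice 1 or 4 (edgeR adjusted p from 0.0583 to 0.0845). Markers of muscle fibers had a sum of 94275 to 146817 CPM in treated and 84477 to 119462 CPM in placebo mice of this genotype, with 0 of 6 past the test.

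**Figure D4:**
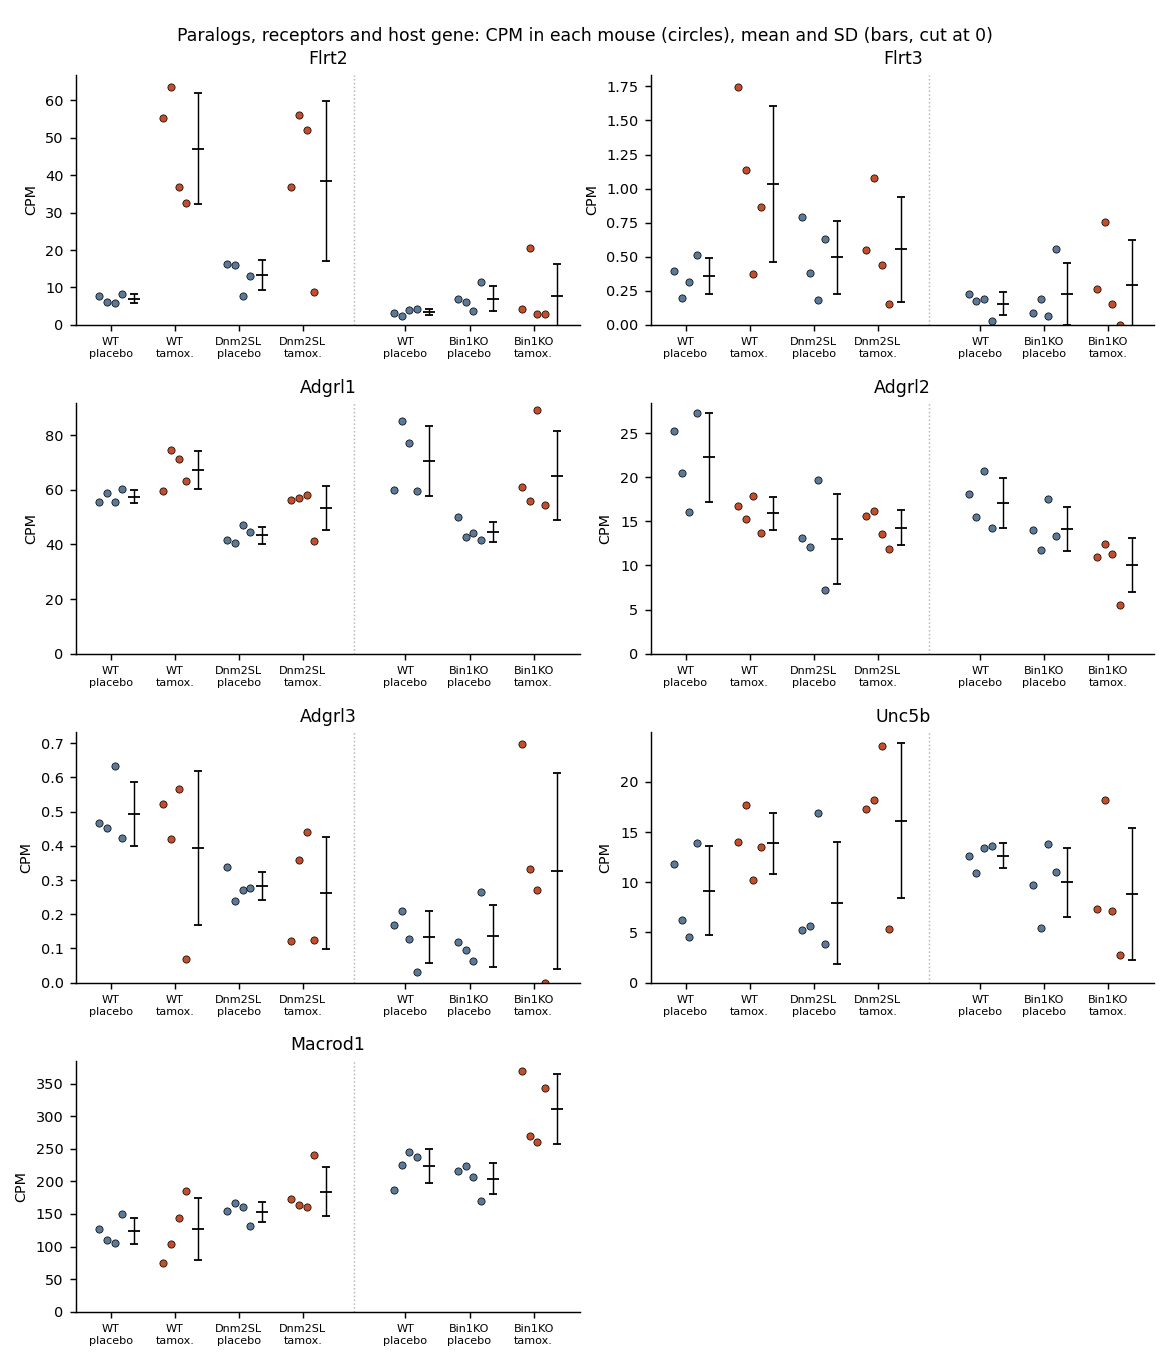
CPM of the 7 other members in each mouse (circles, blue for placebo, red for tamoxifen) with the group mean and SD (n = 4), on axes that start at 0. *Adgrl1* is lower in placebo disease mice of both cohorts (40.4 to 49.9 CPM) than in their WT mice (55.4 to 85.1 CPM), and *Flrt2* is spread from 8.73 to 56.0 CPM in *Dnm2* S619L/+ treated mice.

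Between the genotypes on tamoxifen, 0 of 9 members passed in the *Dnm2* cohort, where 2.70% of all genes passed (2.18% higher, 0.518% lower). *Macrod1* passed there without WT treated mouse 4 (log2 fold change 0.79, edgeR adjusted p = 0.0440). At an unadjusted p under 0.05 there were 3, *AC109619.1*, *Adgrl1* and *Macrod1*, and DESeq2 called 1 of 9. In the test of whether tamoxifen acted differently in the 2 genotypes, 0 of the 7 members tested passed by edgeR or DESeq2, and 0 had an unadjusted p under 0.05, where 0.259% of all genes passed (0.0324% higher, 0.227% lower). The smallest edgeR adjusted p there was 0.387, that of *Flrt2*.

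**Figure D5:**
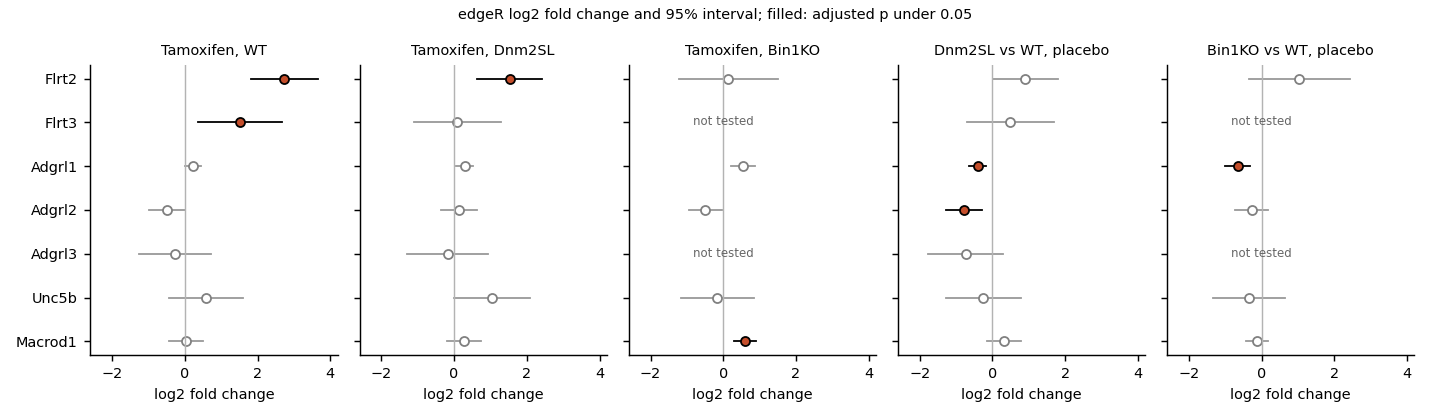
Log2 fold change (points) with its 95% interval (lines) from edgeR for the 7 other members in 5 comparisons, with filled points for an adjusted p under 0.05. *Flrt2* stands at 2.74 and 1.53 under tamoxifen in the *Dnm2* cohort, and *Adgrl1* at −0.40 and −0.66 in disease against WT mice.

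Per kb of exon, the order of the members in WT placebo mice of the *Dnm2* cohort was *Macrod1* (mean 101 CPM per kb), *Adgrl1* (6.69), *Adgrl2* (1.57), *Unc5b* (1.46), *Flrt2* (0.904), *AC109619.1* (0.333), *Flrt1* (0.190), *Flrt3* (0.0731) and *Adgrl3* (0.0278). In WT treated mice, *AC109619.1* (21) came after *Macrod1* (103), ahead of *Adgrl1* (7.82), *Flrt1* (7.51) and *Flrt2* (6.09). The last 3 had overlapping ranges of 6.94 to 8.70, 5.32 to 10.6 and 4.22 to 8.25 CPM per kb, as had *Adgrl2* and *Unc5b* on placebo. *Flrt1* thus moved from below *Adgrl2* and *Unc5b* into the range of *Adgrl1*.

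The genes on either side of *Flrt1* on the chromosome did not move as *Flrt1* did. Of the 5 nearest neighbors on each side that the count tables hold (*Stip1*, *Fermt3*, *Trpt1*, *Nudt22* and *Dnajc4*; *Otub1*, *Cox8a*, *Naa40*, *Rcor2* and *Mark2*), 1 of 10 passed under tamoxifen in WT, *Rcor2*, a corepressor gene, from 0.457 ± 0.114 to 1.14 ± 0.226 CPM (SD, n = 4; log2 fold change 1.33, edgeR adjusted p = 0.00874). In *Dnm2* S619L/+ mice 0 of 10 passed. The shares of all genes that passed were 27.7% in WT, 8.27% in *Dnm2* S619L/+ and 3.13% in *Bin1* mck-/- mice. In *Bin1* mck-/- mice 1 of 10 passed, the deubiquitinase gene *Otub1*, from 40.8 ± 0.686 to 56.5 ± 7.17 CPM (SD, n = 4; log2 fold change 0.47, edgeR adjusted p = 0.0246), which did not hold with only these groups (adjusted p = 0.0754) or without placebo mouse 1, 2 or 4 or treated mouse 4 (edgeR adjusted p from 0.0610 to 0.0695).

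Further binding partners of FLRT proteins, a list of 20 receptors, teneurins and neurexins, were higher under tamoxifen in the *Dnm2* cohort: 8 of 15 tested passed as higher in WT mice, and 8 of 15 in *Dnm2* S619L/+ mice, with 0 lower in either. Over all genes, 15.8% and 5.22% passed as higher. The median log2 fold change of the list was 1.13 and 1.64, against −0.04 and −0.03 over all genes. For *Bin1* mck-/- mice 1 of 14 genes passed, *Fgfr4*, as higher, where 1.52% of all genes did. The median of the list there was −0.16.

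*Fgfr2*, an FGF receptor, had 0.284, 0.311, 0.0790 and 0.469 CPM in WT placebo and 63.8, 82.7, 39.4 and 45.8 CPM in WT treated mice (7.49 on the log2 scale, SE 0.85, edgeR adjusted p = 0.000177). These placebo values lie around the 0.347 CPM that the filter asks of 4 mice of the cohort, and treated mice count toward it. In *Dnm2* S619L/+ treated mice *Fgfr2* had 30.8, 50.2, 72.2 and 2.16 CPM, and in *Bin1* mck-/- treated mice 0.915, 34.2, 0.116 and 0 CPM. The low values are those of the mice with low bone markers, as for *Flrt2*, and the part of bone in these differences was not tested. *Robo1*, the guidance receptor that associates with FLRT proteins, had 9.46, 13.9, 8.61 and 8.25 CPM in WT treated against 1.29 to 2.67 CPM in placebo mice, and 4.29, 6.17, 7.50 and 1.6 CPM in *Dnm2* S619L/+ treated against 0.905 to 1.76 CPM in placebo mice.

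Further partners that passed as higher in both genotypes of the *Dnm2* cohort were *Fgfr3* (log2 fold change 2.94 in WT and 2.57 in *Dnm2* S619L/+), *Robo2* (1.53 and 1.67), and the teneurin genes *Tenm3* (1.13 and 1.64) and *Tenm4* (1.76 and 2.40), latrophilin ligands themselves. In a fit of only the *Dnm2* S619L/+ groups, 7 of the 8 calls did not hold (adjusted p from 0.0511 to 0.0957), that of *Tenm3* apart. Without treated mouse 2 those of *Robo1* and *Robo2* did not hold (edgeR adjusted p of 0.0510 and 0.0639), nor that of *Robo1* without treated mouse 3 (0.0590). *Unc5c*, a netrin receptor, passed in WT mice (2.97) and not in *Dnm2* S619L/+ mice. *Gpc3*, a glypican, passed in *Dnm2* S619L/+ mice (0.77) and not in WT, a call that did not hold without any of placebo mice 2 to 4 or treated mice 1 to 3 (edgeR adjusted p from 0.0556 to 0.108). The difference between genotypes did not pass for any of the 15.

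*Fgfr4* followed another pattern. It was lower in both disease models on placebo, at 0.586, 0.480, 0.407 and 0.0791 CPM against 5.87, 3.39, 2.69 and 5.6 CPM in the *Dnm2* cohort, and at 1.01, 2.77, 3.42 and 1.65 CPM against 6.34, 6.57, 6.01 and 6.96 CPM in the *Bin1* cohort. Treated disease mice had 4.72, 1.39, 2.12 and 3.05 CPM (log2 fold change 2.82 against placebo, edgeR adjusted p = 0.00378) and 5.92, 5.36, 6.32 and 5.30 CPM (1.38, edgeR adjusted p = 0.0190). None of these 4 pairs of groups overlapped. Its WT mice changed by −0.14 under tamoxifen and did not pass (edgeR adjusted p = 0.818). Of 3 satellite cell markers, *Pax7* and *Calcr* passed as lower in both disease models on placebo, and *Calcr* as higher under tamoxifen in both (1 of 3), and their part in the *Fgfr4* values was not tested. On placebo, 9.81% of all genes passed as lower in the *Dnm2* and 0.627% in the *Bin1* cohort. Under tamoxifen, 5.22% passed as higher in *Dnm2* S619L/+ and 1.52% in *Bin1* mck-/- mice. The *Bin1* mck-/- calls of *Fgfr4* are the weaker ones when 1 mouse is left out. They did not hold for tamoxifen with only these groups (adjusted p = 0.0805) or without placebo mouse 4 or treated mouse 3 (edgeR adjusted p of 0.0580 and 0.0534), and for disease without placebo mouse 4 or WT mice 6 or 8 (edgeR adjusted p from 0.0535 to 0.0549). With only the groups compared, the tamoxifen call in *Dnm2* S619L/+ mice did not hold either (edgeR adjusted p = 0.0656).

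In *Dnm2* S619L/+ against WT mice on placebo, 4 of 15 partners passed as lower (*Fgfr4*, *Tenm3*, *Gpc3* and the endothelial latrophilin relative *Adgrl4*) and 0 as higher, where 9.81% of all genes passed as lower. *Adgrl4* did not hold without disease mice 2 or 4 or WT mouse 4 (edgeR adjusted p from 0.0684 to 0.0769), nor *Gpc3* without disease mouse 4 or WT mouse 3 (0.0669 and 0.0779). Within the *Bin1* cohort *Fgfr4* alone passed, 1 of 14, where 0.627% of all genes passed as lower. Between the genotypes on tamoxifen, 0 of 15 passed.

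Netrins, their other receptors and the SLIT ligands of ROBO receptors formed a list of 14. Under tamoxifen in WT mice, 5 of 13 passed as higher and 1 as lower, and in *Dnm2* S619L/+ mice 3 of 13 as higher and 0 as lower. Of all genes, 15.8% passed as higher and 11.9% as lower in WT, and 5.22% and 3.05% in *Dnm2* S619L/+ mice. Treated mice count toward the filter on low counts for this list as well. *Slit2*, the ROBO ligand, had 0.603 to 0.869 CPM in WT placebo and 49.2, 42.1, 22.7 and 14.0 CPM in WT treated mice, 25.9, 47.8, 44.3 and 1.51 CPM in *Dnm2* S619L/+ treated mice, and 0.479, 21.9, 0.0388 and 0.0365 CPM in *Bin1* mck-/- treated mice. It again followed the mice with bone markers. *Dcc*, a netrin receptor, and *Neo1*, the receptor of repulsive guidance molecules, passed in both genotypes (log2 fold changes of 7.76 and 5.19 for *Dcc* and of 1.08 and 0.98 for *Neo1*), and *Slit3* and *Ntn3* in WT and not in *Dnm2* S619L/+ mice (1.47 and 1.51, the difference not passing the test), with *Rgmb* lower in WT (−0.35), though not without WT placebo mice 1, 2 or 4 or treated mice 1 or 2 (edgeR adjusted p from 0.0603 to 0.122). In *Dnm2* S619L/+ mice, *Slit2* and *Neo1* did not hold with only these groups (adjusted p = 0.0656 and 0.0894), nor *Neo1* without placebo mouse 2 or treated mice 2 or 3 (edgeR adjusted p from 0.0567 to 0.0697). In *Bin1* mck-/- mice 1 of 11 passed, *Ntn4*, as lower (−0.83, edgeR adjusted p = 0.0103), where 1.61% of all genes did. On placebo, *Slit1* passed as higher (1.44) and *Ntn5* as lower (−1.78) in *Dnm2* S619L/+ mice, the latter not without disease mice 3 or 4 or WT mouse 2 (edgeR adjusted p from 0.0513 to 0.103).

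Other adhesion proteins with leucine-rich repeats, a list of 31 relatives of FLRT such as the LRRTM, SLITRK and LRFN families, were tested for 17 genes in the *Dnm2* cohort and 14 in the *Bin1* cohort. In WT treated mice 7 of 17 passed as higher and 0 as lower, those with the smallest p being *Slitrk4* (log2 fold change 3.50), *Lrig3* (1.43), *Lrrc4* (1.90), *Slitrk6* (4.2), *Islr2* (1.41) and *Lrfn4* (1.01). Of all genes, 15.8% passed as higher in WT and 5.22% in *Dnm2* S619L/+ mice, and 3.05% as lower in the latter. In *Dnm2* S619L/+ treated mice *Lrfn1* (3.10), *Lrig3* (1.25) and *Slitrk4* (2.32) passed as higher and *Lingo1* as lower (−1.70). None of these 4 held in every fit that left out 1 mouse (edgeR adjusted p up to 0.145): treated mouse 2 was needed for all of them, as was treated mouse 3. On placebo, 5 of 17 passed as higher in *Dnm2* S619L/+ mice: *Lingo1* (2.89), *Lrfn3* (1.18), *Lrrn2* (1.70), *Lrrn1* (1.25) and *Lrfn4* (1.02). Of all genes, 12.1% did so.

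In the *Bin1* cohort, 2 genes of that list changed in opposite directions with disease and with treatment. Of all genes, 2.61% passed with disease and 3.13% with treatment. *Lrrn2* was higher in disease (2.37, edgeR adjusted p = 0.0456) and lower under tamoxifen (−2.68, edgeR adjusted p = 0.0285). *Lrig1*, a regulator of growth factor receptors, was lower in disease (−0.48, edgeR adjusted p = 0.0365) and higher under tamoxifen (0.48, edgeR adjusted p = 0.0308), from 63.9 ± 4.54 to 89.3 ± 14.1 CPM (SD, n = 4). The 2 comparisons share the *Bin1* mck-/- placebo mice, and none of the 4 calls held without any of placebo mice 1, 2 or 4 (edgeR adjusted p from 0.0593 to 0.141). For disease they did not hold without any WT mouse either (0.0595 to 0.147), and for tamoxifen not without treated mouse 3 (0.0858 and 0.0909). *Lrig1* under tamoxifen also did not hold without placebo mouse 3 or treated mouse 4 (0.0545 and 0.0628). In a fit of only the 2 *Bin1* mck-/- groups, neither tamoxifen call held (edgeR adjusted p = 0.100 for *Lrig1* and 0.0966 for *Lrrn2*). With no filter on low counts, both calls of *Lrrn2* were lost (edgeR adjusted p = 0.0882 for disease and 0.0572 for tamoxifen).

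Genes of ADP-ribose turnover beside *Macrod1* formed a list of 12 with 11 tested. The list also holds *Mgme1*, which is not a gene of ADP-ribose turnover and passed in no comparison. Under tamoxifen *Parp1* and *Oard1* were lower in WT mice (log2 fold changes of −0.31 and −0.45), and 0 of 11 passed in *Dnm2* S619L/+ and in *Bin1* mck-/- mice. Of all genes, 11.9% passed as lower in WT mice. On placebo, *Parp3* (0.63) and the hydrolase gene *Adprh* (0.53) were higher and *Parp1* (−0.34) lower in *Dnm2* S619L/+ mice, and 0 of 11 passed in the *Bin1* cohort. Of all genes, 12.1% passed as higher and 9.81% as lower in that *Dnm2* cohort comparison. *Parp3* (0.49) and *Adprh* (0.53) were also higher in *Dnm2* S619L/+ than in WT mice on tamoxifen, where 2.18% of all genes passed as higher. *Parp1* is the least firm of these, not passing without WT placebo mice 1, 2 or 3 or treated mice 1, 2 or 4 for tamoxifen, nor without disease mice 1, 2 or 4 or WT mice 2 or 3 on placebo (edgeR adjusted p from 0.0541 to 0.130). *Oard1* did not hold without WT placebo mouse 3 (0.0530). On tamoxifen, *Adprh* did not hold without *Dnm2* S619L/+ mouse 1 (0.0543), nor *Parp3* without mouse 1 of either genotype (0.0629 and 0.0682).

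The genes whose levels were most like those of *Flrt1* across mice were sought among 14572 genes tested in both cohorts, by the smaller of the 2 Pearson coefficients of log2 CPM, over 16 mice of the *Dnm2* cohort and 12 of the *Bin1* cohort. *AC109619.1* took place 2 (r = 0.97 and 0.95), as fits the way both genes were chosen, and the 2 may share reads. The 5 others at the top were *AC140413.2* (r = 0.97 and 0.98), *Efhc2* (0.93 and 0.91), *Gpx3* (0.90 and 0.93), *Ccdc125* (0.90 and 0.92) and *Rbm3* (0.88 and 0.90). In each cohort the mice form 2 separate clusters by treatment, so these coefficients describe that step. Within groups they fell to between −0.31 and 0.58, and the top 5 by within-group deviations shared 0 genes with these.

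*AC140413.2* (ENSMUSG00000117927), an unnamed long noncoding RNA also on chromosome 19, had 0 reads in all 16 placebo mice of both cohorts. In treated mice it had 27, 15, 17 and 10 reads in WT, 32, 7, 11 and 16 in *Dnm2* S619L/+ and 20, 42, 80 and 20 in *Bin1* mck-/- mice. As for *Flrt1*, the highest CPM of the *Bin1* cohort, 3.10, was that of treated mouse 3. *Gpx3*, a secreted glutathione peroxidase, was 65.8 to 165 CPM in placebo mice and 233 to 1312 CPM in treated mice.

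Of the other members, *Adgrl1* was at place 636 (r = 0.47 and 0.34), *Macrod1* at 2158 (0.09 and 0.78), *Flrt2* at 2668 (0.76 and 0.04), *Unc5b* at 8763 (0.47 and −0.38) and *Adgrl2* at 12770 (−0.11 and −0.63). *Macrod1* was closer to *Flrt1* in the *Bin1* cohort and *Flrt2* in the *Dnm2* cohort, and neither was near *Flrt1* in both. *AC109619.1* is set apart here, since it was chosen on the same rise in treated mice as *Flrt1*.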

How the data were processed

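RNA-seq was analysed for TA muscle of 28 mice in 7 groups of 4. The authors deposited whole-number read counts per gene, not normalized, in 1 table for each cohort. The submitters' processing notes name bcl2fastq 2.20.0.422, cutadapt 1.10, Bowtie 1.2.2, STAR 2.5.3, HTSeq 0.6.1p1 and the genome build mm39. The role of each tool, the annotation release and the strand setting of the counting are not given in the sources used here. Libraries were stranded and poly(A)-selected. In the *Bin1* table, 4 lines that name no gene held 22.0 to 30.8% of the reads and were left out.

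Each cohort was fitted with edgeR 4.0.16 (R 4.3.3): filterByExpr, TMM factors and the robust quasi-likelihood test over all mice of the cohort. Treated mice count toward the filter, so a gene scarce on placebo, list genes included, can enter a test through its treated mice alone. Benjamini-Hochberg adjustment covered all genes (15439 tested in the *Dnm2* cohort and 14841 in the *Bin1* cohort), with a threshold of 0.05. Fitted log2 fold changes used edgeR's default prior count. A prior count of 2 was used only for the log2 CPM of the likeness to *Flrt1*. Tests were two-sided. The steps were tested on simulated data. Samples are labelled by replicate number, and the study counts its RNA-seq data by mice, so p-values are taken to measure the spread between mice. Precision rests on 15586333 to 109710886 reads on genes per mouse, and intervals from pooled reads cover counting error only.

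Alternatives were DESeq2 1.42.0, RLE factors, no filter, the study's filter, only the groups compared, a replicate block, and leaving out each mouse. Named genes were the 9 members in every comparison, the genes called in each pathway list (the 6 with the smallest p where more were called, and a gene named in 1 comparison could be given in others), 5 neighbors of *Flrt1* on each side, and the 5 genes most like *Flrt1* beside *AC109619.1*. The members and lists were chosen with earlier results of these data known. Gene lengths and exons are from GENCODE M21, whose build differs from mm39, so no gene coordinates are given. Promoter sequences are from RefSeq on GRCm38.p6. In the list on ADP-ribose, *Adprs* was not matched in the tables.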

Additional observations from a re-analysis of the deposited data

Results flagged for a closer look

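In 63 groups of 4 mice (9 genes in 7 groups), 5 had a mouse whose gap to the nearest other was, as a share of the range of the group, over Dixon's 95% critical value. Chance alone sets about 1 in 20 groups apart in this way. *Bin1* mck-/- treated mouse 3 had 103.9 CPM of *Flrt1*, against 30.1 to 39.2 CPM in the other treated mice of its group. *Bin1* mck-/- treated mouse 2 had 20.5 CPM of *Flrt2*, against 2.91 to 4.31 CPM, and was the only mouse of that group with a high sum of bone markers (294 CPM). *Dnm2* S619L/+ treated mouse 4 stood apart for *Macrod1* (240.4 CPM against 160 to 173) and for *Adgrl1* (41.2 CPM against 56.2 to 58.2), and had the lowest sum of bone markers of its group (47.5 CPM). *Dnm2* S619L/+ placebo mouse 3 had 16.9 CPM of *Unc5b*, against 3.83 to 5.61 CPM, and the highest sum of endothelial markers of its group (458 CPM against 166 to 237).

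*AC109619.1* differed in opposite directions in the 2 disease models on placebo, with a log2 fold change of 1.01 in *Dnm2* S619L/+ mice, all of which were above their WT mice, and of −2.6 in *Bin1* mck-/- mice, all of which were below theirs, on 12 pooled reads. The difference between the 2 models was not tested, as the cohorts were normalized separately. The direction in *Dnm2* S619L/+ mice also differed between placebo (1.01) and tamoxifen (−0.47), with no overlap of the genotypes in either. That difference was not tested, because *AC109619.1* was selected on its change under tamoxifen.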

How the results depend on the processing

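Limits: groups of 4 mice, low placebo counts of *Flrt1*, *AC109619.1*, *Flrt3* and *Adgrl3*, and 1 annotation. Of the single-gene values under all alternatives, 2298 kept direction and side of the threshold, 167 lost the call, 15 gained it, 29 turned sign and 3 moved. Of 60 calls of list genes, 24 were lost in 1 or more fits that left out a mouse. The cause of the changes was not tested.

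Members called under tamoxifen in WT (2) were 1 with no filter, with the study's filter and with a replicate block. In *Dnm2* S619L/+ mice, no filter, only the groups compared and the block gave 814, 30 and 843 genes, and 0, 0 and 0 members. In *Bin1* mck-/- mice, DESeq2, only the groups compared and the block gave 1223, 122 and 152 genes. There 2 members were called by DESeq2, 2 with no filter, 0 with only the groups compared and 0 with the block. For *Bin1* mck-/- against WT, DESeq2 and only the groups compared gave 1191 and 1458 genes, and DESeq2 2 members. Among these members was *AC109619.1* (DESeq2 adjusted p = 0.00271), which entered that test only through its treated mice. It was also called in some fits that left out 1 mouse. For the genotypes on tamoxifen, DESeq2 gave 937 genes and 1 member. For the difference between tamoxifen effects, DESeq2, RLE factors, the study's filter and the block gave 327, 20, 16 and 10 genes. Of the 5 genes most like *Flrt1*, Spearman's rho shared 2 and within-group deviations 0. *Flrt2* under tamoxifen in *Bin1* mck-/- mice turned to −0.32 with the block, and *Flrt1* in *Dnm2* S619L/+ against WT placebo mice to −0.011 by DESeq2 and −0.00041 with only the groups compared.

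Replicate numbers did not pair the mice: deviations of same-numbered mice correlated from −0.325 to 0.335 over 28 pairs. With the replicate block, 3835, 843, 152, 2842, 364 and 10 genes passed for tamoxifen in WT, *Dnm2* S619L/+ and *Bin1* mck-/- mice, *Dnm2* S619L/+ against WT on placebo and on tamoxifen, and the difference of effects. For *Bin1* mck-/- against WT mice on placebo alone, no paired fit was made, since these groups share no replicate number.

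Leaving out 1 mouse, genes and members called ranged from 2769 to 4825 and 1 to 3 (tamoxifen in WT), 368 to 2562 and 0 to 2 (*Dnm2* S619L/+), 160 to 1253 and 0 to 2 (*Bin1* mck-/-), 2034 to 3953 and 1 to 4 (*Dnm2* S619L/+ against WT, placebo), 18 to 759 and 0 to 2 (*Bin1* mck-/- against WT), 182 to 623 and 0 to 1 (genotypes on tamoxifen), and 1 to 293 and 0 to 0 (difference of effects), and 4 to 5 genes most like *Flrt1* were shared. Log2 fold changes that turned sign ranged, under tamoxifen in WT, from −0.20 to 0.22 (*Macrod1*) and −0.48 to 0.067 (*Adgrl3*). In *Dnm2* S619L/+ mice they ranged from −0.43 to 0.44 (*Flrt3*), −0.066 to 0.40 (*Adgrl2*) and −0.55 to 0.072 (*Adgrl3*), and in *Bin1* mck-/- mice from −1.06 to 0.47 (*Flrt2*) and −0.81 to 0.13 (*Unc5b*). Against WT on placebo they ranged from −0.60 to 0.43 (*Flrt1*) and −0.93 to 0.018 (*Unc5b*) in *Dnm2* S619L/+ and −0.41 to 0.23 (*Flrt1*) in *Bin1* mck-/- mice. On tamoxifen they ranged from −0.54 to 0.036 (*Flrt2*) and −0.032 to 0.50 (*Unc5b*), and for the difference of effects from −0.85 to 0.18 (*Flrt1*) and −0.27 to 0.35 (*Adgrl3*).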
